A study of Homo sapiens with 8 samples.

Results

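The nuclear genes for proteins of the mitochondrial ribosome were followed in a leukaemia cell line and its persister-resistant derivative, with and without an inhibitor of BET proteins. Members were all genes of the deposited table whose symbol begins with MRPL or MRPS and a number, which gave 77 of 19718 genes, 48 with a large subunit symbol (MRPL) and 29 with a small subunit symbol (MRPS). HEL92.1.7 is an established erythroleukaemia line that the submitters use for secondary acute myeloid leukaemia, and HEL OTX P/R is its derivative, labelled with the OTX drug name and P/R. The sources used here do not say how the derivative was made or whether it is 1 clone. OTX015 is a small molecule that keeps BET bromodomain proteins from binding acetylated histones. The 4 groups were untreated parental HEL92.1.7 cells, parental cells given 1000 nM OTX015 for 8 hours, untreated P/R cells, and P/R cells given the same dose for the same time. Each group had 2 libraries, labelled as biological replicates treated independently. The untreated cells are labelled only as having no drug, with no vehicle named.

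Mitochondrial ribosomes translate the few messenger RNAs of the mitochondrial genome, all of which code for subunits of the respiratory chain and of ATP synthase. Their RNA is transcribed inside the organelle, while every one of their proteins is encoded in the nucleus, made in the cytosol and imported. Some of these proteins have homologues in bacterial ribosomes, and others exist only in mitochondria. Nuclear factors such as NRF1, GABPA, YY1 and MYC are known to bind promoters of many of the genes. By structure, MRPS30 and MRPS18A sit in the large subunit despite their symbols, and MRPS36 is now known as a component of the 2-oxoglutarate dehydrogenase complex.

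The deposited levels name no unit and are read as FPKM, which counts fragments relative to the length of a transcript and the size of the library. The values had been quantile normalized, and every library sums to 678133. Sequencing depth is therefore unknown and a change in total RNA per cell cannot be seen. The labelled cell type was checked with 8 erythroid and megakaryocyte markers, which were all at 1 FPKM or more in every library. They summed to 11192 to 13378 FPKM, highest in an untreated parental and lowest in a treated P/R library. Most of the sum was HBG2, at a mean of 9120 FPKM over the 8 libraries, with HBG1 at 2339 FPKM. Sums of treated parental libraries (12483 to 13366 FPKM) overlapped those of untreated parental ones (13310 to 13378 FPKM). The 4 lymphocyte markers summed to 0.0563 to 0.483 FPKM, with CD3D and MS4A1 at 0, and the 3 stromal markers to 0.216 to 0.764 FPKM. The 4 epithelial markers summed to 3.77 to 4.11 FPKM in parental and 15.7 to 22 FPKM in P/R libraries. Nearly all of that was KRT8, with KRT19 at 0, and the part of these markers in the line differences given later was not tested. Across tested genes, replicates correlated at r = 0.996 to 0.997 and libraries of different groups at 0.959 to 0.985.

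All 77 genes were expressed and all passed the filter of the test, which asked for 1 FPKM or more in 2 or more libraries. Their mean FPKM over the 8 libraries had a median of 62.5, against 14.1 for the 11255 genes tested, and 74 of the 77 lay above that median. Transcript levels ranged 51.1-fold, from 5.67 FPKM for MRPL50 to 289 FPKM for MRPL4, and 63 genes lay between 20 and 120 FPKM. After MRPL4, a homologue of bacterial L4 at the wall of the exit tunnel, the highest means were those of MRPL12 at 256, MRPL37 at 235 and MRPL20 at 189.6 FPKM. MRPL12 forms the flexible stalk that recruits translation factors, and is known to be present in several copies per ribosome. The lowest after MRPL50 were MRPS17 at 8.88, MRPS36 at 13.3 and MRPL1 at 16.8 FPKM. Large and small subunit genes had similar medians, 63.9 and 58.7 FPKM. The median coefficient of variation within a group was 3.1%.

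Summed over the 77 genes, the level was 6189.8 and 6206 FPKM in untreated parental libraries and 5334 and 5222 FPKM after OTX015. In P/R libraries it was 6014 and 6107 FPKM without and 5276 and 5443 FPKM with the drug. The treated libraries of both lines lay below all untreated ones, and the lines overlapped under the drug but not without it. The treated mean was 85.2% of the untreated mean in parental cells (6198 ± 11.5 to 5278 ± 79.2 FPKM, SD, n = 2) and 88.4% in P/R cells (6061 ± 65.6 to 5359 ± 118 FPKM, SD, n = 2). With 2 against 2 libraries an exact permutation test cannot give a p below 0.333, so the sums are a description. Both subunits had like values, 85.2% for large and 85.1% for small subunit genes in parental cells, and 88.9% and 87.3% in P/R cells. Within the large subunit, the summed level of genes with a bacterial homologue was 82.2% and 85.5% of untreated in parental and P/R cells, and that of the mitochondria-specific genes 91.2% and 96.8%. In the small subunit the same classes stood at 84.8% and 87.6%, and at 85.4% and 85%.

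The first comparison asks how parental cells respond to BET inhibition. In parental cells 43 of the 77 genes fell with OTX015, 3 rose and 31 did not pass the test (limma on log2(FPKM + 1), Benjamini-Hochberg over all genes tested, adjusted p under 0.05, as for all adjusted p-values here). Over all tested genes 24.7% fell and 25.7% rose, against 55.8% and 3.9% of the members. The median log2 change was -0.19, against 0.02 over all genes tested, and 66 members were below 0. Most changes were small. The quartiles were -0.36 and -0.07, and 6 genes fell by at least 0.5 on the log2 scale, a count given without the share over all genes. By symbol, 27 of 48 large subunit genes fell and 2 rose, and 16 of 29 small subunit genes fell and 1 rose. Of genes with a bacterial homologue, 19 of 30 in the large and 9 of 17 in the small subunit fell. Of the mitochondria-specific genes, 9 of 20 and 6 of 9 fell.

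MRPL3, a homologue of bacterial L3 that lies near the peptidyl transferase centre, had the largest fall. It was at 122 and 127 FPKM in untreated parental libraries, 57 and 51.2 in treated parental, 114 and 121 in untreated P/R and 50.1 and 61.8 in treated P/R libraries. Its treated libraries lay below every untreated one in both lines, and the lines overlapped under the drug. The treated mean was 43.5% of untreated in parental cells, a log2 change of -1.19 (SE 0.0919, adjusted p = 1.19e-05), and 47.8% in P/R cells, a log2 change of -1.06 (SE 0.0919, adjusted p = 3.33e-05). MRPS18C is a homologue of bacterial S18 and belongs to the small subunit. It was at 33.5 and 36 FPKM in untreated parental libraries, 18 and 18.1 in treated parental, 36.2 and 35.3 in untreated P/R and 20.6 and 21.8 in treated P/R libraries. Again no treated library reached an untreated one. The changes were -0.91 (SE 0.0632, adjusted p = 7e-06) in parental and -0.73 (SE 0.0632, adjusted p = 3.32e-05) in P/R cells. An exon of MRPS18C shares bases with ABRAXAS1 on the other strand, and the sources used here do not say whether counting used strand.

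MRPL16, whose bacterial homologue helps to position transfer RNA on the large subunit, was at 61.1 and 65.4 FPKM in untreated parental libraries, 37.5 and 39.2 in treated parental, 57.2 and 57.6 in untreated P/R and 38.9 and 43.4 in treated P/R libraries. The treated groups lay below both untreated groups, and its changes were -0.71 (SE 0.065, adjusted p = 3.03e-05) in parental and -0.47 (SE 0.065, adjusted p = 0.000419) in P/R cells. MRPL1, a protein of the mobile stalk beside the exit site, was at 20.4 and 25 FPKM in untreated parental libraries, 14.3 and 13.6 in treated parental, 16.7 and 17.4 in untreated P/R and 12.5 and 14.8 in treated P/R libraries. Its treated libraries lay below the untreated ones of the same line. It changed by -0.65 (adjusted p = 0.000952) in parental cells and by -0.30 (adjusted p = 0.0471) in P/R cells, where 8 of 16 alternative settings ended the call, among them leaving out either untreated P/R library, either treated parental library or P/R OTX015 1. The bacterial homologue of MRPL15 enters the large subunit late in assembly. MRPL15 was at 119 and 116 FPKM in untreated parental and 74.5 and 77.4 in treated parental libraries. In P/R libraries it was at 103 and 96.4 FPKM untreated and 71.6 and 72.7 treated. Here too the treated libraries were all below the untreated ones, with changes of -0.62 (adjusted p = 1.36e-05) and -0.46 (adjusted p = 0.000105) in parental and P/R cells.

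Among small subunit genes, MRPS15, a homologue of the early RNA-binding protein S15, was at 167 and 165 FPKM in untreated parental libraries, 119.9 and 107 in treated parental, 165 and 171 in untreated P/R and 111 and 119 in treated P/R libraries. It fell to 68.4% of untreated in parental cells (log2 -0.55, SE 0.0597, adjusted p = 8.25e-05) and to 68.5% in P/R cells (log2 -0.54, SE 0.0597, adjusted p = 0.00012), and the groups with drug did not overlap those without. MRPS12, a homologue of the decoding-site protein S12, changed by -0.43 (adjusted p = 0.000107) and -0.36 (adjusted p = 0.000402). MRPS7, an S7 homologue in the head of the subunit, changed by -0.30 (adjusted p = 0.00129) in parental and -0.18 (adjusted p = 0.0201) in P/R cells. The other S18 homologues had unlike values. In the class counts, MRPS18B stood with the small subunit genes that have a bacterial homologue. MRPS18A, though an S18 homologue, was counted there with the mitochondria-specific large subunit genes. MRPS18B fell by 0.44 and 0.30 on the log2 scale, whereas the value for MRPS18A was -0.07 (adjusted p = 0.255) in parental and 0.10 (adjusted p = 0.134) in P/R cells, neither past the threshold. MRPS30, like MRPS18A a large subunit protein, changed by -0.39 (adjusted p = 0.00265) and -0.31 (adjusted p = 0.0107). The value for MRPS36 was -0.07 (adjusted p = 0.559) in parental cells, and it fell in P/R cells by 0.27 (adjusted p = 0.0497), a call that 10 of 16 alternative settings ended, among them leaving out any library other than the untreated parental ones. In P/R cells the call of MRPS7 was lost without any 1 of the 4 P/R libraries, and that of MRPS30 without P/R untreated 2 or P/R OTX015 1.

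Genes for the factor-binding stalk of the large subunit had unlike values. MRPL12 was at 301 and 292 FPKM in untreated parental libraries, 217 and 212 in treated parental, 284 and 294 in untreated P/R and 225 and 222 in treated P/R libraries. It fell in both lines, by 0.46 (adjusted p = 2.16e-05) and 0.37 (adjusted p = 0.000112) on the log2 scale, with no overlap between treated and untreated libraries. MRPL10, the protein that anchors MRPL12 to the ribosome, was at 59.9 and 61.9 FPKM in untreated parental libraries, 83.5 and 86 in treated parental, 62.4 and 69.5 in untreated P/R and 77.9 and 76.4 in treated P/R libraries. Its treated libraries were above all untreated ones, and it rose by 0.47 (SE 0.0585, adjusted p = 0.000178) in parental and by 0.22 (SE 0.0585, adjusted p = 0.0122) in P/R cells. The P/R call was lost without P/R untreated 1 or P/R OTX015 1. MRPL11, the stalk base protein, did not pass in either line, with values of 0.02 (adjusted p = 0.786) and -0.05 (adjusted p = 0.465).

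MRPS6, an S6 homologue of the small subunit, rose as well. It was at 53.4 and 53.5 FPKM in untreated parental libraries, 70.6 and 71 in treated parental, 48.4 and 45.3 in untreated P/R and 61.7 and 66 in treated P/R libraries. The treated libraries of each line lay above all untreated libraries, and the changes were 0.40 (SE 0.0548, adjusted p = 0.000332) and 0.44 (SE 0.0548, adjusted p = 0.000244). In the annotation used here MRPS6 shares exon bases on the same strand with SLC5A3, a myo-inositol transporter gene, which was at 2.52 ± 0.365 FPKM untreated and 3.92 ± 0.0333 treated in parental cells (SD, n = 2), and which also rose, by 0.49 (adjusted p = 0.00421) there and 0.46 (adjusted p = 0.0068) in P/R cells. The sources used here do not say how reads of the shared bases were divided. The third gene that rose in parental cells was MRPL41, a mitochondria-specific large subunit protein, at 0.16 (adjusted p = 0.0271), and in P/R cells it stood at 0.13 (adjusted p = 0.068). Its parental call was lost without either untreated parental library or parental OTX015 2. Leaving out 1 library, parental OTX015 2, left fewer than 43 of the 77 genes lower in parental cells. How the count over all genes tested changed in that fit is not given.

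**Figure D1:**
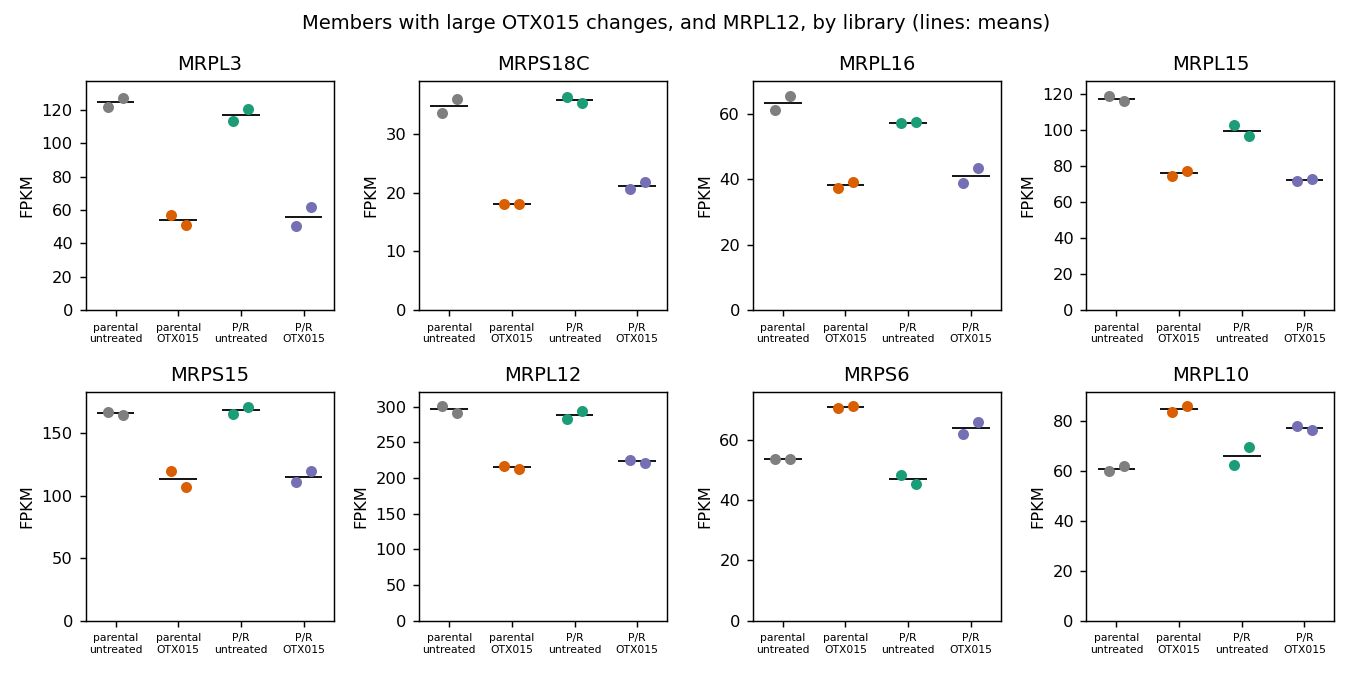
FPKM of 8 members in each of the 8 libraries, 1 panel per gene, with 2 points and a line at the mean for each of the 4 groups. For MRPL3, MRPS18C, MRPL16, MRPL15, MRPS15 and MRPL12 the treated points lie below the untreated ones in both lines, and for MRPS6 and MRPL10 above them.

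In P/R cells the same comparison gave 34 genes that fell, 3 that rose and 40 that did not pass, against 21.8% lower and 22.5% higher over all genes tested. That is 44.2% of the members lower and 3.9% higher. The median log2 change was -0.18 (0.01 over all genes), with 64 members below 0 and quartiles of -0.28 and -0.04. By symbol, 19 of 48 large and 15 of 29 small subunit genes fell. Of genes with a bacterial homologue, 16 of 30 large and 8 of 17 small subunit genes fell, and of the mitochondria-specific genes 4 of 20 and 5 of 9. The 8 largest falls were those of MRPL3, MRPS18C, MRPS15, MRPL16 and MRPL15, whose values stand above, and of MRPS35 (log2 -0.51, adjusted p = 0.000391), MRPL19 (log2 -0.48, adjusted p = 0.000143) and MRPS5 (log2 -0.40, adjusted p = 0.00146), which changed by -0.29, -0.36 and -0.39 in parental cells. MRPL19 and MRPS5 are homologues of bacterial L19 and S5, and MRPS35 is a mitochondria-specific protein of the small subunit. The genes that rose were MRPS6, MRPL10 and MRPL14 (log2 0.12, adjusted p = 0.0472), and leaving out any 1 of the 8 libraries ended the call of MRPL14. Without P/R untreated 2 the number lower was 21, and without P/R OTX015 1 it was 22. Without P/R untreated 1 or P/R OTX015 1 only 1 gene was called higher.

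Members at the top of the range of levels were among those that fell. MRPL4 was at 328 and 331 FPKM in untreated parental libraries, 251 and 264 in treated parental, 309.7 and 317 in untreated P/R and 268 and 248 in treated P/R libraries, and it changed by -0.36 (adjusted p = 0.000268) and -0.28 (adjusted p = 0.00129). MRPL20, an L20 homologue, changed by -0.31 (adjusted p = 0.000203) and -0.23 (adjusted p = 0.00146), and MRPL37, a mitochondria-specific protein, by -0.13 (adjusted p = 0.0335) in parental cells, with -0.05 (adjusted p = 0.378) in P/R cells. At the bottom of the range, MRPL50 did not pass in either line, with -0.21 (adjusted p = 0.13) and -0.27 (adjusted p = 0.0643). MRPS17, an S17 homologue, fell by 0.41 (adjusted p = 0.0083) in parental cells and stood at -0.26 (adjusted p = 0.0627) in P/R cells. The parental call of MRPS17 was lost without parental untreated 2 or parental OTX015 2, and that of MRPL37 without any 1 library other than parental untreated 2 and the treated P/R pair. In all, 22 members passed in none of the comparisons of OTX015 with untreated or of the lines with each other. The same count was not made over all genes tested, so it shows nothing particular to the members. Among them were MRPS11, MRPL43 and MRPL2, named here after their values were seen.

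The group means compared in the 2 lines share no library. The spread of each gene was estimated from all 4 groups together, so the calls in the 2 lines are not independent. Of the members, 31 fell in both lines, which is 72.1% of the 43 in parental and 91.2% of the 34 in P/R cells, beside 73.9% and 83.7% for all genes that fell. MRPL10 and MRPS6 rose in both lines. Of the members, 27 passed in neither line and none passed in opposite directions, counts that were not made over all genes tested. Across the 77 members the log2 changes correlated at Pearson r = 0.90 and Spearman rho = 0.83, close to r = 0.89 over all genes tested. These are correlations across genes, which are not independent replicates.

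**Figure D2:**
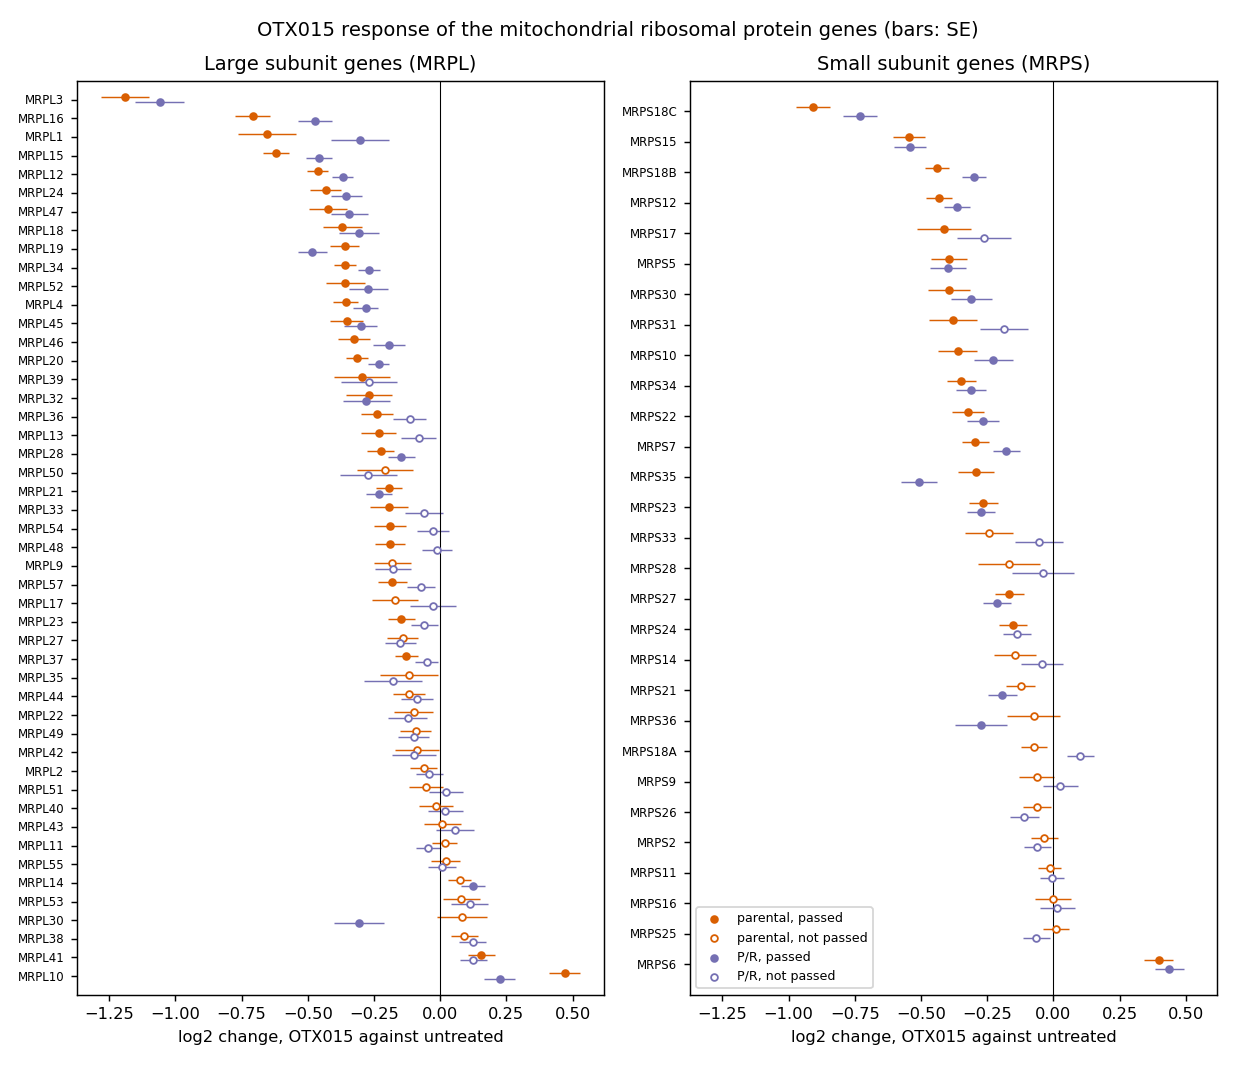
Log2 change with OTX015 for each of the 77 members, large subunit symbols on the left and small on the right, in parental (orange) and P/R cells (violet). Bars are standard errors and filled points passed the test, and most filled points lie left of 0 in both lines, with MRPL3 at the far left and MRPL10 and MRPS6 at the far right.

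A test of the difference in response, P/R minus parental, called 0 of the 77 members with limma, and 6 were at an unadjusted p under 0.05: MRPL16, MRPL10, MRPL30, MRPL1, MRPS18A and MRPL15. Over all genes tested it called 0.08%, and 1080 genes, or 9.6%, were at an unadjusted p under 0.05. The differences ranged from -0.39 to 0.35 on the log2 scale, with a median of 0.05, and 72 members were within 0.2 of no difference. The smallest adjusted p was 0.381, for MRPL10, whose rise was 0.245 smaller in P/R cells (SE 0.0827). The lowest value was that of MRPL30, at -0.39 (adjusted p = 0.385), with 0.08 in parental and -0.31 in P/R cells, and the highest that of MRPL1, at 0.35 (adjusted p = 0.51). The value for MRPS18A was 0.18 (adjusted p = 0.476). For MRPL16 and MRPL15 the differences were 0.24 (SE 0.0919, adjusted p = 0.446) and 0.16 (SE 0.0695, adjusted p = 0.493). With 2 libraries a group these values do not show that the lines respond alike.

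The lines were also compared with each other. Without drug, 8 members were lower in P/R than in parental cells and 2 were higher, against 11.9% lower and 11.7% higher over all genes tested. The median difference was -0.003 on the log2 scale, and 68 of the 77 genes were within 0.2 of no difference. Under OTX015, 6 were lower and 7 higher, beside 11.7% and 12.7% of all genes, with a median of 0.03. MRPL52, MRPL45, MRPL47, MRPS2 and MRPL55 were lower in both conditions, which is 62.5% of the 8 and 83.3% of the 6, and MRPL34 was higher in both, which is 50% of the 2 and 14.3% of the 7. Over all genes the same shares were 63.6% and 64.6% for lower genes and 71.8% and 65.8% for higher ones. These comparisons share libraries with those of OTX015 against untreated.

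MRPL52, a mitochondria-specific protein of the large subunit, had the largest line difference. It was at 195 and 209 FPKM in untreated parental libraries, 145 and 169.8 in treated parental, 122 and 123 in untreated P/R and 97.4 and 105 in treated P/R libraries. P/R cells were below parental cells both without and with the drug. The P/R mean was 60.7% of the parental mean untreated (log2 -0.71, SE 0.0735, adjusted p = 0.000137) and 64.3% under OTX015 (log2 -0.63, SE 0.0735, adjusted p = 0.000268). MRPL45, which sits at the exit of the protein tunnel and holds the ribosome to the inner membrane, was at 56.7 and 55.8 FPKM in untreated parental libraries, 45.6 and 42.1 in treated parental, 38.1 and 36.9 in untreated P/R and 29.1 and 31.5 in treated P/R libraries. Its differences were -0.57 (SE 0.0625, adjusted p = 0.000193) and -0.52 (SE 0.0625, adjusted p = 0.000309), again with no overlap between lines in either condition. The annotation holds 2 pseudogenes named for MRPL45, and the sources used here do not say how their reads were counted.

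MRPL47, a homologue of bacterial L29 near the tunnel exit, was at 73 and 74.2 FPKM in untreated parental libraries, 58.6 and 50.8 in treated parental, 57.5 and 53.3 in untreated P/R and 44.1 and 42.8 in treated P/R libraries. It differed by -0.40 (adjusted p = 0.00294) untreated and -0.32 (adjusted p = 0.00964) under the drug, and untreated P/R cells were at about the level of treated parental cells. MRPL47 shares exon bases with ACTL6A on the other strand, and whether counting used strand is not stated. ACTL6A differed by -0.48 (adjusted p = 0.00222) untreated and -0.65 (adjusted p = 0.000372) under the drug. MRPS2, an S2 homologue, was at 90.7 and 85.6 FPKM in untreated parental libraries, 85.2 and 86.8 in treated parental, 73.2 and 75.7 in untreated P/R and 73 and 69.7 in treated P/R libraries. With OTX015 its values were -0.03 (adjusted p = 0.601) in parental and -0.06 (adjusted p = 0.364) in P/R cells, neither past the threshold, and the line differences were -0.24 (adjusted p = 0.00788) and -0.27 (adjusted p = 0.00445). MRPL55, a homologue of bacterial L31, differed by -0.21 (adjusted p = 0.0203) and -0.22 (adjusted p = 0.0148). MRPL34, an L34 homologue, was at 141 and 142 FPKM in untreated parental libraries, 111 and 109 in treated parental, 162 and 161 in untreated P/R and 137 and 131 in treated P/R libraries. It was higher in P/R cells in both conditions, by 0.19 (adjusted p = 0.00936) and 0.28 (adjusted p = 0.00106), while OTX015 lowered it in both lines, by 0.36 and 0.27.

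**Figure D3:**
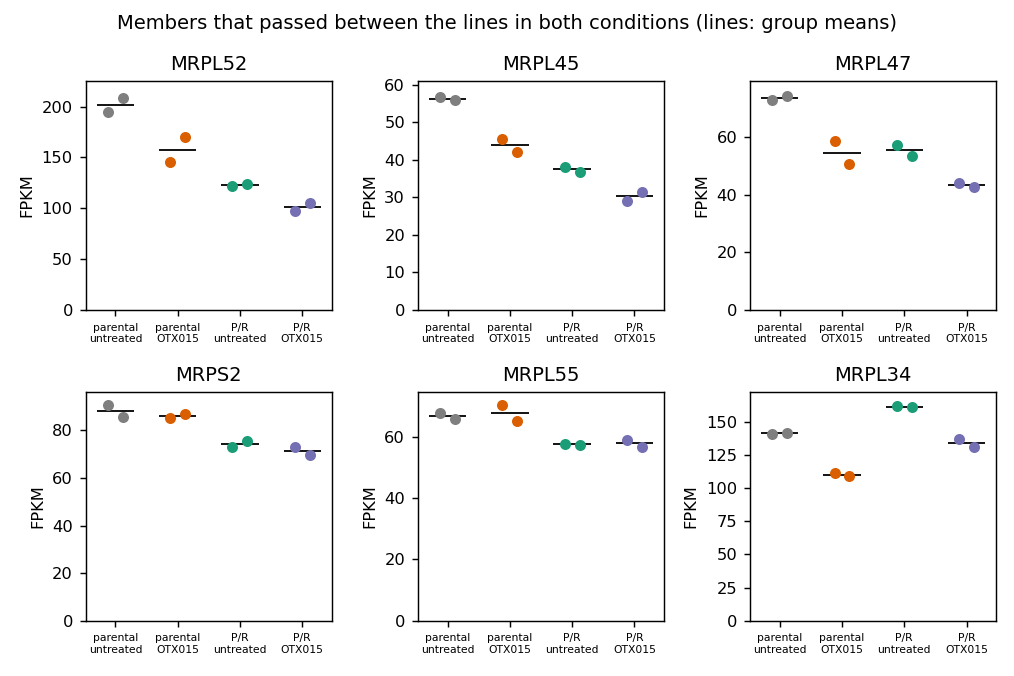
FPKM of 6 members in each of the 8 libraries, with 2 points and a line at the mean for each of the 4 groups. P/R points lie below the parental points of the same condition for MRPL52, MRPL45, MRPL47, MRPS2 and MRPL55, and above them for MRPL34.

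The other members called between untreated lines were MRPL1 (log2 -0.39, adjusted p = 0.0294), MRPL15 (log2 -0.24, adjusted p = 0.00745), MRPS6 (log2 -0.19, adjusted p = 0.0358) and MRPS21 (log2 0.23, adjusted p = 0.0156), an S21 homologue. Those that passed under OTX015 and not in the untreated comparison were MRPL11 (log2 -0.15, adjusted p = 0.0423) on the lower side, and MRPS18A (log2 0.29, adjusted p = 0.00259), MRPS18B (log2 0.27, adjusted p = 0.00215), MRPS18C (log2 0.22, adjusted p = 0.0319), MRPL13 (log2 0.22, adjusted p = 0.0386), MRPS16 (log2 0.21, adjusted p = 0.0491) and MRPL28 (log2 0.16, adjusted p = 0.0451) on the higher side. By leaving out 1 library in turn, the calls of MRPL11 and MRPL28 were lost in all 8 fits, that of MRPL13 in every fit but the one without P/R OTX015 1, that of MRPS16 without any library but the untreated P/R pair, and that of MRPS18C without either untreated P/R library, either treated parental library or P/R OTX015 2. The untreated calls of MRPS21 and MRPL55 were lost without any 1 untreated library, and so was that of MRPS6, which either treated parental library also ended. That of MRPL1 was lost without parental untreated 2 or either untreated P/R library, that of MRPL15 without parental untreated 1 or P/R untreated 2, that of MRPS2 without parental untreated 1 or P/R untreated 1, and that of MRPL34 without either untreated P/R library. Under OTX015 the calls of MRPL47 and MRPL55 were lost without parental OTX015 1 or P/R OTX015 2. All of the S18 homologues are among the genes higher in treated P/R than in treated parental cells. The untreated counts were 4 lower without parental untreated 1, P/R untreated 1 or P/R untreated 2 and 5 without parental untreated 2, and the number higher was 0 without P/R untreated 1 and 1 without any one of the other 3. Under OTX015 the number higher was 4 without either untreated parental library or P/R OTX015 2, 3 without either treated parental library and 11 without P/R OTX015 1, and the number lower was 3 without parental OTX015 1.

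The genes around the 3 members with the largest untreated line differences differed between the lines in the same direction. Gene order was taken from GENCODE 29, and for each member the 20 nearest tested genes on each side were read. Around MRPL52 on chromosome 14, the median difference of the 40 neighbours was -0.45 untreated and -0.44 under OTX015, with 29 and 27 of the 40 lower in P/R cells by the test. Around MRPL45 on chromosome 17 it was -0.48 and -0.49, with 34 and 35 lower. Around MRPL47 on chromosome 3 it was -0.32 and -0.39, with 20 and 21 lower. The untreated neighbour medians of the other members lower or higher in both conditions were near 0, at -0.06 for MRPS2, -0.05 for MRPL55 and -0.05 for MRPL34. Around MRPS6 on chromosome 21 the neighbours had medians of -0.16 and -0.11, and around MRPS21 on chromosome 1 they had 0.12 and 0.09, the side on which each of these members lay. With OTX015 the neighbours of these 3 members had median changes in parental cells of -0.04 around MRPL52, 0.07 around MRPL45 and 0.14 around MRPL47, with 11, 8 and 10 lower and 7, 7 and 13 higher by the test. The members themselves fell by 0.36, 0.35 and 0.42. The number of DNA copies was not measured, and its part in the line differences was not tested.

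**Figure D4:**
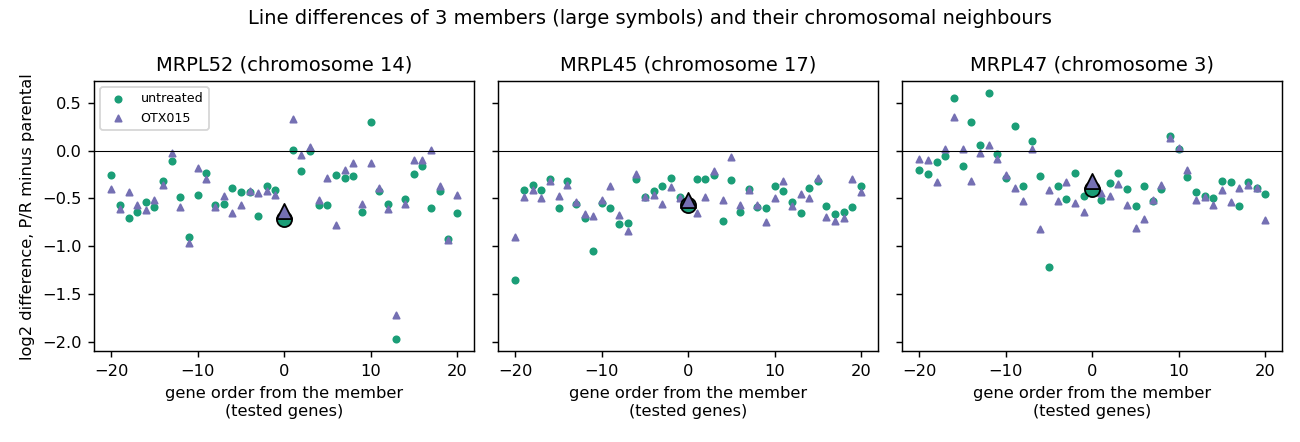
Log2 difference between untreated lines (circles) and treated lines (triangles), P/R minus parental, for MRPL52, MRPL45 and MRPL47 (large symbols) and the 20 tested genes on each side in gene order. All 40 neighbours of MRPL45 and 36 of 40 of MRPL52 lie below 0 in both conditions, as do 30 of 40 of MRPL47.

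Promoters are shown for the 3 members with the largest falls in parental cells and for MRPS6, which rose, as the stretch before the RefSeq start that no annotated exon covers (GRCh38.p14, each written 5′ to 3′ along the strand of the gene). Capitals mark matches to 5 short motifs searched on both strands: the E-box CACGTG bound by MYC and related factors, the ETS core CCGGAAG bound by GABPA and other ETS factors, the NRF1 core GCATGCGC, the YY1 core AAGATGG, and the CCAAT box CCAAT.
MRPL3 (chr3:131502984-131503221, - strand): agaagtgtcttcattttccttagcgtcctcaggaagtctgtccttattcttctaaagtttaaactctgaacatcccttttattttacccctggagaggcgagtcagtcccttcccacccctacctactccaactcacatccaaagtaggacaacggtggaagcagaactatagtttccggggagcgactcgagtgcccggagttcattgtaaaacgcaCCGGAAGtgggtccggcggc
MRPS18C (chr4:83455857-83455931, + strand): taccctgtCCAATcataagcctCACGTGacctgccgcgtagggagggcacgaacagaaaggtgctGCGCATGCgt
MRPL16 (chr11:59810873-59811028, - strand): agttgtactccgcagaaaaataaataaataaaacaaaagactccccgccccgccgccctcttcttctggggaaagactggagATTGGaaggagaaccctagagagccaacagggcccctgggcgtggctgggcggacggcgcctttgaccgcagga
MRPS6 (chr21:34073328-34073522, + strand): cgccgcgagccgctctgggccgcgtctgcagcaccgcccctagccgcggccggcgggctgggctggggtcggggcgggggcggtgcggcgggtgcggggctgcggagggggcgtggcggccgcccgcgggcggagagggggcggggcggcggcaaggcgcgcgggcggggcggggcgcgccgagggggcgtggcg
The MRPL3 stretch holds 1 ETS core close to its 3′ end. The shorter stretch of MRPS18C holds a CCAAT box, an E-box and an NRF1 core, the last on the other strand, and that of MRPL16 a CCAAT box on the other strand. None of the 5 motifs is in the stretch printed for MRPS6, which says only that these letters are not in this window.

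Over RefSeq windows from 250 bases before to 50 bases after the start, 68 members had 84 promoters in the table. The ETS core was in 38.1% of these, against 18.1% of 12642 promoters of tested genes and 10.3% of all 35116 promoters. The YY1 core was in 32.1%, against 7.36% and 5.84%. The YY1 matches of members, as in MRPL20, MRPS10, MRPS18A and MRPL52, lay at least partly in exon-covered bases or after the start. They were not within the stretches before the start that no annotated exon covers. The shares of the other motifs lay nearer to those of tested genes. They were 10.7% against 9.72% for the E-box, 7.14% against 5.02% for the NRF1 core and 33.3% against 35.2% for the CCAAT box. Among the members themselves, the 40 promoters of genes that fell in both lines and the 32 of genes that fell in neither held the ETS core in 40% and 31.2%, and the YY1 core in 37.5% and 31.2%. The E-box was in 5% and 15.6% of the same promoters, which is 2 and 5 of them. Several members have more than 1 promoter, so these shares are not over independent genes, and a match is not a bound site.

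Of the 77 genes, 29 have the start of another coding gene within 1000 bases on the other strand. MRPL46 and MRPS11 form such a pair of members, named here after their values were seen. MRPS11, an S11 homologue, was at 70.7 and 71.4 FPKM in untreated parental libraries, 70.1 and 70.6 in treated parental, 70.4 and 70.6 in untreated P/R and 69.7 and 70.7 in treated P/R libraries, with changes of -0.01 (adjusted p = 0.8) and -0.01 (adjusted p = 0.928). MRPL46, a mitochondria-specific large subunit protein, was at 48.2 and 45.1 FPKM in untreated parental libraries, 36.2 and 37.9 in treated parental, 45.8 and 47.3 in untreated P/R and 39.4 and 41.7 in treated P/R libraries, and it fell by 0.32 (adjusted p = 0.00172) and 0.19 (adjusted p = 0.0253). The P/R call of MRPL46 was lost without either untreated P/R library or P/R OTX015 1. MRPL46 also shares exon bases on the same strand with the coding gene AC013489.1. Of 24 tested pairs of a member and such a partner, the member fell in 15 in parental cells, and the partner fell in 2 of these, rose in 3 and did not pass in 10. In P/R cells the member fell in 12, and the partner fell in 1, rose in 2 and did not pass in 9. TCP1 beside MRPL18 fell with its member in both lines, with changes of -0.37 (adjusted p = 0.000429) and -0.29 (adjusted p = 0.00224), and NDUFS6 beside MRPL36 changed by -0.14 (adjusted p = 0.0304) and -0.15 (adjusted p = 0.02), both named after their values were seen. PPP1R10 beside MRPS18B rose by 0.31 (adjusted p = 0.00225) and 0.42 (adjusted p = 0.0005), HELQ beside MRPS18C stood at 0.27 (adjusted p = 0.0774) and 0.30 (adjusted p = 0.0654), and SARS2 beside MRPS12 at -0.08 (adjusted p = 0.295) and -0.05 (adjusted p = 0.548).

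Other genes of mitochondrial translation were read from lists chosen by known function. Over all genes tested 24.7% fell and 25.7% rose in parental cells, and 21.8% fell and 22.5% rose in P/R cells. Of 6 mitochondrial ribosomal proteins with other names, 2 (33.3%) fell and 1 (16.7%) rose in parental cells, and 2 (33.3%) fell in P/R cells. CHCHD1 changed by -0.42 and -0.25 on the log2 scale, PTCD3 by -0.17 and -0.51, and DAP3, a GTP-binding small subunit protein, rose by 0.20 in parental cells. Of 14 translation factors, 8 (57.1%) fell in each line, while 2 (14.3%) rose in parental and 1 (7.14%) in P/R cells. The release factor homologue MTRF1 changed by -0.74 and -0.67, the initiation factor MTIF2 by -0.41 and -0.44, and MTFMT, which formylates the initiator transfer RNA, by 0.43 and 0.64. Of 27 assembly and rRNA modification genes 5 fell and 5 rose in each line, or 18.5% each way, below the shares over all genes tested. Among them, MRM1, an rRNA methyltransferase, changed by -0.65 and -0.61, and NOA1, a GTPase, by 0.47 and 0.42.

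Of 10 genes for mitochondrial transcription and RNA stability, 5 (50%) fell and none rose in each line. They include the transcription factor TFB2M (-0.76 and -0.71), the nuclease PNPT1 (-0.69 and -0.78), SLIRP (-0.48 and -0.43) and the polymerase POLRMT (-0.37 and -0.29). Of 8 tested nuclear regulators, 3 (37.5%) fell in each line: MYC (-0.21 and -0.24), ESRRA (-0.43 and -0.23) and PPRC1 (-0.30 and -0.29). NRF1 rose by 0.26 in parental cells, and TFAM and GABPA did not pass in either line. The 13 messenger RNAs of the mitochondrial genome had other directions. None fell and 4 (30.8%) rose in parental cells (median 0.17), and 4 (30.8%) fell and none rose in P/R cells (median -0.09). For the difference in response limma called 0 of the 13. At an unadjusted p under 0.05 there were 9, against 9.6% of all genes tested. Between untreated lines 10 of the 13 (76.9%) were higher in P/R cells, with a median of 0.45, against 11.7% of all genes tested. Under OTX015 3 (23.1%) were higher and 1 (7.69%) lower, against 12.7% and 11.7%. The highest of these levels repeat exactly between libraries in the quantile-normalized values, so their changes are coarse. MT-CO2, for example, was at 4796 FPKM in both untreated libraries of each line.

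**Figure D5:**
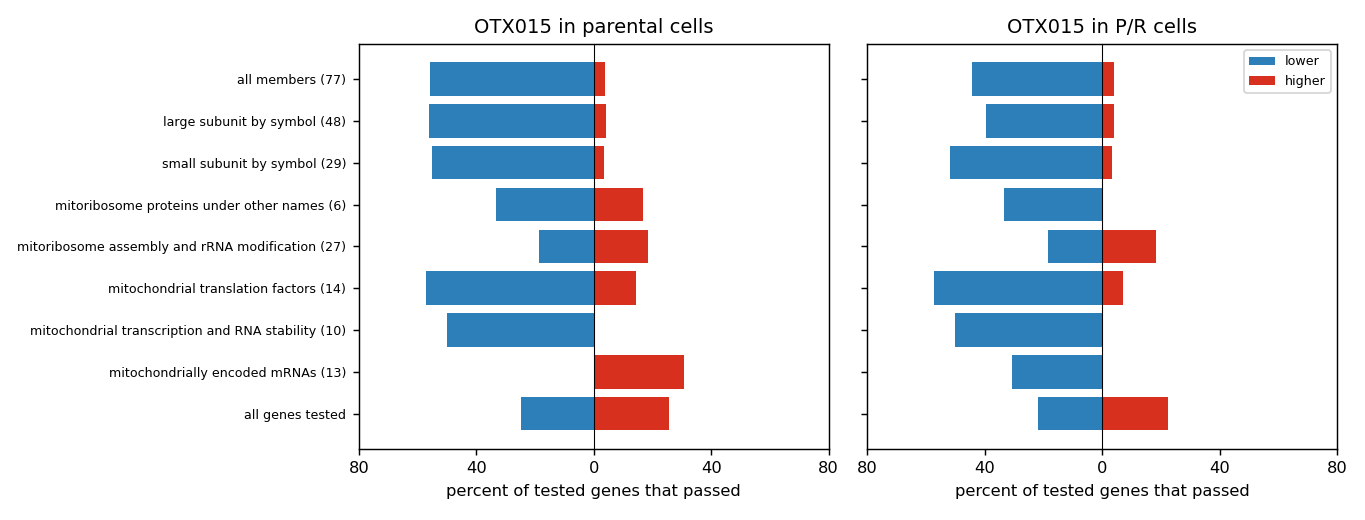
Percent of tested genes that passed the test, lower (blue, to the left) and higher (red, to the right), with OTX015 in parental and P/R cells, for the 77 members, both subunits, 5 related lists and all genes tested. The members, both subunits, the 6 proteins with other names and the 14 translation factors reach further to the left than all genes tested. So do the 10 transcription and RNA stability genes, while the 27 assembly and rRNA modification genes reach less far. The 13 mitochondrially encoded mRNAs have no bar to the left in parental cells. In P/R cells they reach further to the left than all genes tested and have no bar to the right.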

How the data were processed

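The authors' deposited file holds 19718 coding genes in 8 libraries, made from total RNA treated with DNase. Its header names no unit. The deposited values were taken to be FPKM from their form and from the tools TopHat2 2.0 and Cufflinks 2.0 and the build hg19, named in the submitters' processing notes. The role of each tool, the annotation, the use of strand and any poly(A) selection are not stated in the sources used here. At a mean of at least 1 FPKM, values of the same rank differ between libraries by at most 0.136%, so the table is quantile normalized. This hides global changes and the sequencing depth, and no counting interval is given.

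Values were transformed to log2(FPKM + 1), on which fold changes of low genes are understated. The 11255 genes with at least 1 FPKM in at least 2 libraries were fitted in limma 3.58.1 (R 4.3.3) with 4 group means, a variance trend, 4 residual degrees of freedom and 5.23 prior ones. The 5 contrasts were tested two-sided, and a gene passed at an adjusted p (Benjamini-Hochberg across the 11255 genes) under 0.05. The fit was also run on simulated data with independent normal noise, which the model assumes. That run cannot show how the fit behaves on quantile-normalized values with ties. Ratios in percent are of mean FPKM.

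The members and the gene lists were chosen with earlier results of these data known. For each contrast the named members are up to 8 of the largest rises and falls that passed without overlap of the groups (up to 5 for the difference in response), with the 4 highest and 4 lowest levels and members of known role. From each related list up to 4 called genes were eligible, with the regulators MYC, TFAM, POLRMT, NRF1 and GABPA. Gene order and exon overlap came from GENCODE 29 on GRCh38, matched by Ensembl identifier, which placed all 77 members. There, 34 members share exon bases with another coding gene and 34 have a pseudogene named for them, so their values are uncertain where reads were divided. Because the build of the table could not be settled, coordinates are given for the RefSeq promoter sequences only.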

Additional observations from a re-analysis of the deposited data

How the results depend on the processing

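Counts were recomputed with other pseudocounts (0.1 and 5), without the filter or with only genes whose mean reached 5 FPKM, without the variance trend, after median centring, with only the compared groups fitted, with a replicate block, with a minimum log2 change of 0.5, and with each library left out once. No call of a member changed direction under these settings. Shares over all genes tested are not given for them, nor for the counts above with 1 library left out. A change in a count of members under these settings is therefore not set against all genes. A log2 change of at least 0.5 left 6 members lower and 0 higher in parental cells with OTX015, 4 and 0 in P/R cells, and 2 and 0 between the lines in each condition. Without the variance trend 5 were lower and 1 higher between untreated lines, and 4 were higher under OTX015, as with no filter. Leaving out 1 library gave 28 to 45 lower and 2 to 3 higher with OTX015 in parental cells, 21 to 37 and 1 to 2 in P/R cells, 4 to 8 and 0 to 3 between untreated lines, and 3 to 6 and 3 to 11 between treated lines. In those fits the lone library of a group is assumed to vary like the others. Apart from the minimum log2 change, the calls that held in all 16 settings numbered 30 of 46, 22 of 37, 3 of 10 and 6 of 13 in the same order. Replicate numbers did not pair the libraries (correlation of replicate deviations between groups -0.12 to 0.10). With the replicate block 41 members were lower and 3 higher in parental cells, 33 and 2 in P/R cells, 7 and 3 between untreated lines and 5 and 6 between treated lines, with 0 for the difference in response. A crossed block, chosen after seeing the data, gave 12 higher and 7 lower between treated lines. Depth is unknown, so what it limits cannot be stated.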
